A study of Mus musculus with 3 samples.

Results

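In L929 cells, a mouse fibroblast line, 10 genes were counted in abundance in 2 libraries made with a 3' targeting method and hardly at all by CBTi-seq, a single-cell method that uses an oligo dT primer and a template switch. They are Grik3, Pde1c, Ccdc60, Dmd, Fyb2, Iqcm, Slc8a3, Trim30a, Hdac9 and Cacna1d. They were chosen by measured values, as the 10 largest ratios of 3' over CBTi-seq level among 20186 genes present in all 3 tables, of which 4100 averaged 50 CPM or more (a gene's share of all counts of its library, on the usual CPM scale) over both assays. To be ranked, a gene had to be higher in the 3' tables, have a count in at least 25% of the 3' columns, keep its direction without its highest column and carry a name other than that of an unnamed gene model, which left 916 genes.

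The study set L929 cells whose Rrm2, the gene of a ribonucleotide reductase subunit, was knocked down against control cells, with both groups read by each method. The 3' tables are 1 sample of 8 columns for knock cells and 1 sample of 8 columns for control cells, and the CBTi-seq table is 1 sample with 10 columns named knock and 10 named control. All groups share the cell line, and no source used here says how the knockdown was made. Single cells were picked with a capillary, per the labels' protocols, but no label says what a numbered 3' column holds. Fewer cells with a transcript and less of it in each cell cannot be told apart in the 3' sums. With 1 sample per group, no difference was tested, and the columns of a sample were treated as parts of 1 library and not as replicates.

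The summed counts were 9162364 in the 3' library labelled knock and 7067278 in the 3' library labelled control, with 814960 to 1973137 and 399393 to 2496457 per column. CBTi-seq held 3507123 counts in the knock columns and 3861881 in the control columns, with 153051 to 735871 and 41570 to 846819 per column. The limit that a count of 0 allows, 3 counts, is 0.327 CPM for the 3' library labelled knock and 0.424 CPM for that labelled control. In CBTi-seq it is 0.855 CPM for the knock columns and 0.777 CPM for the control columns. Rrm2 itself stood at 148 CPM in the 3' library labelled knock and at 39.1 CPM in the 3' library labelled control, which goes against the labels, while CBTi-seq had 350 CPM in the knock columns and 481 CPM in the control columns. The 3' libraries are therefore called by their labels, and each 3' direction given here rests on labels that Rrm2 goes against. Of 14 fibroblast markers, 5 reached 20 CPM in the 3' tables and 8 did so in CBTi-seq. Vim, an intermediate filament protein, had 941 CPM in the 3' tables and 1021 CPM in CBTi-seq. Sparc, a secreted matrix protein, had 1274 CPM in the 3' tables and 542 CPM in CBTi-seq, and S100a4 had 230 and 550 CPM. Thy1, Lum and Dcn had 0 counts in CBTi-seq and 10.6 CPM or less in the 3' tables. The summed level of the 14 was 3211 CPM in the 3' library labelled knock and 1863 CPM in that labelled control, against 2540 CPM in the CBTi-seq knock columns and 2599 CPM in the CBTi-seq control columns.

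A long gene is transcribed into a long precursor, most of which is intron and is removed by splicing, so that the mature transcript is a small part of the genomic span. Methods that prime with oligo dT read from a poly(A) tail, and the primer can also anneal to runs of A elsewhere in an RNA. A table of counts per gene does not say whether a count fell in an exon or an intron, and none of the levels here can be read as that of a mature transcript. Many of the listed genes are known from excitable or specialised tissues: ion channels and transporters of nerve and muscle, the muscle protein dystrophin and an interferon-induced protein.

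Of the genes whose products carry ions across the membrane, Grik3 encodes a kainate-type glutamate receptor subunit (chr4:125490700-125714173, plus strand, GRCm38). It had 6796 counts in the 3' tables, or 418.7 CPM, and 1 count in CBTi-seq, a fold of 3086 with a 95% counting interval of 554 to 121896. Its columns ran from 376 CPM to 1261 CPM with a median of 447 CPM in the 3' library labelled knock, against 195 to 577 CPM with a median of 338 CPM in the 3' library labelled control. All 8 knock columns lay above 7 of the 8 control columns, the ranges overlapped through control column 5, and knock column 2 at 1261 CPM stood far above the next at 548 CPM.

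Cacna1d encodes the pore of a voltage-gated L-type calcium channel (chr14:30039939-30491455, minus strand). It had 2625 counts in the 3' tables (162 CPM) and 3 in CBTi-seq, a fold of 397 (136 to 1928). Its columns held 98.8 to 178 CPM, median 139 CPM, in the library labelled knock, and 170 to 263 CPM, median 191 CPM, in the library labelled control, and the overlap rests on knock column 2 alone, at 178 CPM. Slc8a3 encodes a sodium-calcium exchanger that moves calcium out of excitable cells (chr12:81197915-81333180, minus strand). It had 3375 counts in the 3' tables (208 CPM) and 2 in CBTi-seq, both in control column 10, a fold of 766 (212 to 6329). Slc8a3 columns held 121 to 211 CPM, median 159 CPM, in the library labelled knock and 225 to 397 CPM, median 266 CPM, in the library labelled control. All knock columns lay below all control columns, as they did for 11.7% of the 2825 genes that average 50 CPM or more in the 3' libraries.

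The enzymes on the list were Pde1c and Hdac9. Pde1c encodes a phosphodiesterase that breaks down cyclic nucleotides and is activated by calcium and calmodulin (chr6:56069804-56569103, minus strand). It had 13111 counts in the 3' tables (808 CPM) and 2 in CBTi-seq, 1 in a knock and 1 in a control column, a fold of 2976 (824 to 24580). Its columns held 524 to 1090 CPM, median 564 CPM, in the library labelled knock and 644 to 1144 CPM, median 795 CPM, in the library labelled control. Knock columns 5, 6 and 2, at 1090, 978 and 679 CPM, lay within the control range, and the other knock columns reached 577 CPM at most. Hdac9 encodes a class IIa histone deacetylase, a co-repressor of muscle gene transcription (chr12:34047580-34917095, minus strand). It had 8150 counts in the 3' tables (502 CPM) and 9 in CBTi-seq, all in control columns 2, 3 and 8, a fold of 411 (216 to 900). Hdac9 columns held 342 to 587 CPM, median 393 CPM, in the library labelled knock and 357 to 1009 CPM, median 409 CPM, in the library labelled control. Apart from control column 2 at 1009 CPM, the control columns reached 493 CPM at most and lay within the knock range.

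Dmd, Fyb2 and Trim30a encode proteins of the cell cortex and of immune cells. Dmd encodes dystrophin, which ties the actin cytoskeleton to the membrane complex of muscle fibres (chrX:82948870-85206141, plus strand). It had 3488 counts in the 3' tables (215 CPM) and 1 in CBTi-seq, a fold of 1584 (284 to 62571). Its columns held 140 to 227 CPM, median 183 CPM, in the library labelled knock and 161 to 323 CPM, median 230 CPM, in the library labelled control, and the ranges overlapped over most of the knock columns.

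Fyb2 encodes an adaptor related to FYB, which acts in T cell receptor signalling (chr4:104913456-105016863, plus strand). It had 8627 counts in the 3' tables (532 CPM) and 4 in CBTi-seq, a fold of 979 (382 to 3595). Its columns held 389 to 618 CPM, median 460 CPM, in the library labelled knock and 491 to 753 CPM, median 598 CPM, in the library labelled control, and the ranges overlapped. Trim30a encodes an interferon-induced tripartite motif protein that dampens Toll-like receptor signalling (chr7:104409025-104465193, minus strand). With 19135 counts (1179 CPM) it had the highest 3' level on the list, and with 18 CBTi-seq counts it was also the best covered there, a fold of 483 (305 to 815). Trim30a columns held 836 to 1082 CPM, median 943 CPM, in the library labelled knock and 1006 to 1740 CPM, median 1366 CPM, in the library labelled control. Its ranges overlapped through 1 control column at 1006 CPM.

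Ccdc60 and Iqcm are named for protein motifs, a coiled coil and an IQ calmodulin-binding motif. Ccdc60 (chr5:116124641-116288985, minus strand) had 3698 counts in the 3' tables (228 CPM) and 1 in CBTi-seq, a fold of 1679 (301 to 66337). Its columns held 151 to 239 CPM, median 222 CPM, in the library labelled knock and 216 to 371 CPM, median 254 CPM, in the library labelled control. Iqcm (chr8:75448694-75984503, plus strand) had 1713 counts in the 3' tables (106 CPM), the fewest on the list, and 1 in CBTi-seq, a fold of 778 (139 to 30738). Iqcm columns held 54.4 to 126 CPM, median 80.8 CPM, in the library labelled knock and 90.7 to 154 CPM, median 125 CPM, in the library labelled control. For both genes the ranges of the libraries overlapped.

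**Figure D1:**
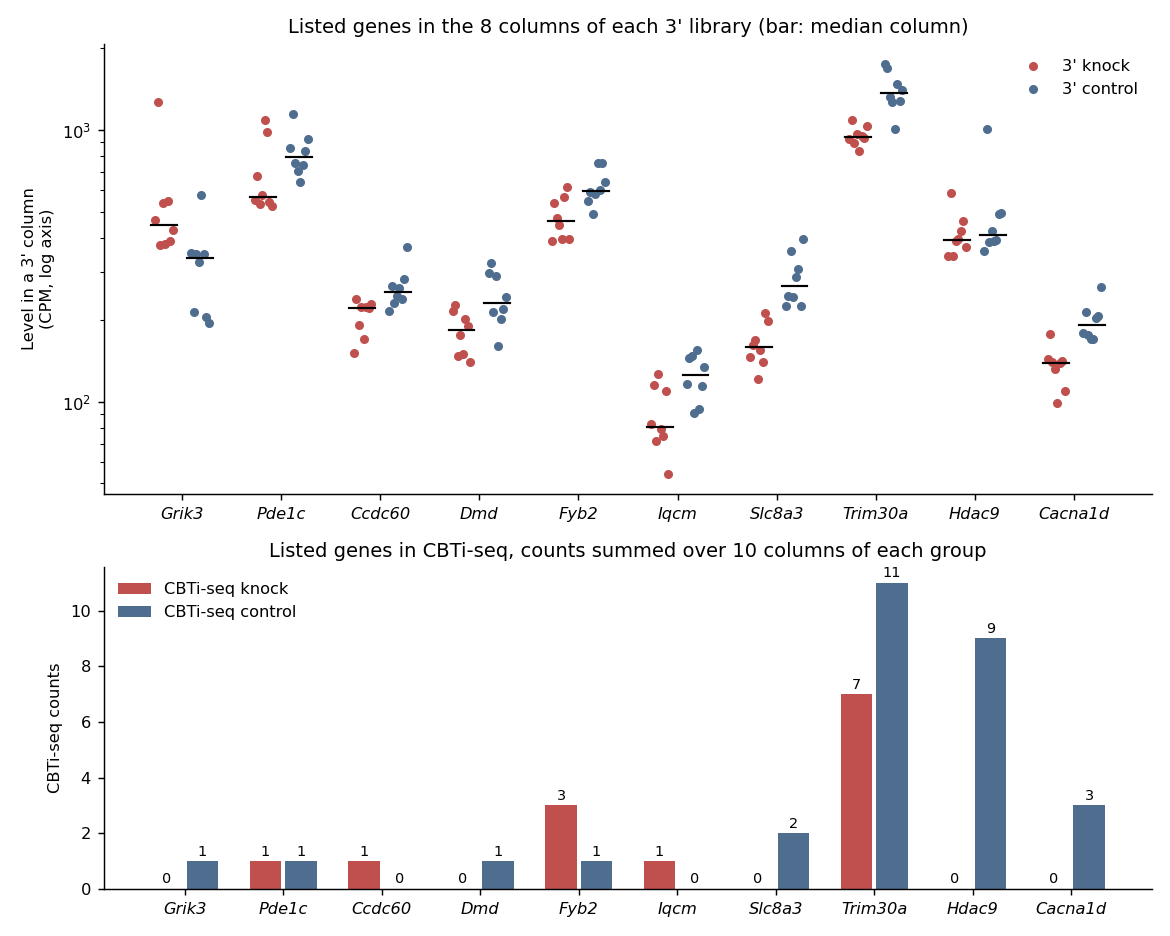
Upper panel: level of each listed gene (CPM, log axis) in the 8 columns of the 3' library labelled knock (red) and the 8 of the 3' library labelled control (blue), with a bar at the median column. Lower panel: CBTi-seq counts summed over the 10 knock and 10 control columns; the tallest bar is 11 counts, while every 3' column holds each gene at 54.4 CPM or more.

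All 10 genes are protein coding and were detected in each of the 16 columns of the 3' tables. The ratios chose the genes and are a description only: on the log2 scale they ran from 8.63 (Cacna1d) to 11.59 (Grik3) with a median of 9.77, while the median over the 4100 genes at 50 CPM or more was -0.96. Of those 4100 genes, 10.5% were at least 2-fold higher in the 3' tables. Just inside the limit stood Hdac9 at 8.68 and Cacna1d at 8.63. Just outside it, among the ranked genes, stood Rpl15-ps3, a 615-base processed pseudogene of a ribosomal protein gene, at 8.16. Adgrd1, an adhesion G protein-coupled receptor gene, stood at 7.61, and Ppfia3, a liprin gene, at 7.55. Ank2 (ankyrin B) at 7.43 and Prkch (a protein kinase C) at 6.84 came next. CPM values are not scaled for length, so the order of levels among the listed genes is an order of counts. Per kilobase of the longest annotated transcript, the 3' level ran from 14.4 CPM in Dmd to 313 CPM in Trim30a, and per kilobase of genomic span from 0.0952 CPM in Dmd to 21.0 CPM in Trim30a.

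In CBTi-seq the listed genes held 42 counts in all, 13 in knock columns and 29 in control columns. These were spread over 8 of the 10 knock columns and 8 of the 10 control columns. A count fell on 5 of the genes in the knock columns and on 8 in the control columns. Trim30a had 7 of its 18 counts in control column 9, the deepest. Low counts of this size were common in that table, where 38.1% of 20716 named rows had 18 counts or fewer and 10.3% had 1. They were less common among genes with a CBTi-seq row at 50 CPM or more in the 3' tables, where 94 of 2661 had 18 CBTi-seq counts or fewer. Genes with no CBTi-seq row are not among these 94, and 179 of 2858 genes at that 3' level had no row. No ratio between knock and control columns is given for CBTi-seq, since 9 of the 10 genes had 9 counts or fewer.

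The listed genes were long in the genome, which the ratio did not use. Their spans ran from 56169 bases (Trim30a) to 2257272 bases (Dmd), with a median of 337 kb against 19.0 kb in the 4090 other genes at 50 CPM or more, a 17.7-fold difference. Of these genes, 9 spanned 100 kb or more, against 9.61% of the other genes. Their mature transcripts differed less, with a median longest transcript of 6434 bases against 2890 bases, a 2.23-fold difference. Exons covered a median of 2.95% of the span of the listed genes, against 21.8% in the others, and 0.407% in Iqcm. The listed genes had a median of 17.5 exons in the transcript with the most, against 9 in the others, and Dmd had 79. Unnamed gene models, which the ranking left out, included some with log2 ratios in the range of the listed genes and shorter spans. AC154200.1 stood at 10.02 with a span of 33.4 kb and Gm3604 at 9.09 with 14.9 kb, while 4930511M06Rik stood at 9.37 with 179 kb.

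The ratio was also set against the genomic span of all genes at that level, with genes that have no 3' count ranked lowest. By class of span, the median log2 ratio of 3' over CBTi-seq level was -0.35 under 10 kb (1244 genes), -1.21 from 10 to 30 kb (1409 genes), -1.25 from 30 to 100 kb (1045 genes), -0.69 from 100 to 300 kb (322 genes) and 0.50 from 300 kb (80 genes). These classes hold the listed genes, which were chosen by this ratio, with 1 from 30 to 100 kb, 4 from 100 to 300 kb and 5 from 300 kb. With them left out, the median was -0.70 from 100 to 300 kb (318 genes) and 0.40 from 300 kb (75 genes). Without them, a ratio of 16-fold or more was found for 1.77% of genes under 10 kb, 0.355% from 10 to 30 kb, 1.05% from 30 to 100 kb, 3.46% from 100 to 300 kb and 12% (9 of 75) from 300 kb. Across 3960 other genes with a count in both assays, Spearman's rho between the ratio and the span was -0.17. These genes share the same libraries and are not independent. Long genes without the pattern existed: Pakap, at 329 kb, stood at 2.09 CPM in the 3' tables and 142 CPM in CBTi-seq, and Nfia, a transcription factor gene of 346 kb, at 32.3 CPM in the 3' tables and 180 CPM in CBTi-seq.

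**Figure D2:**
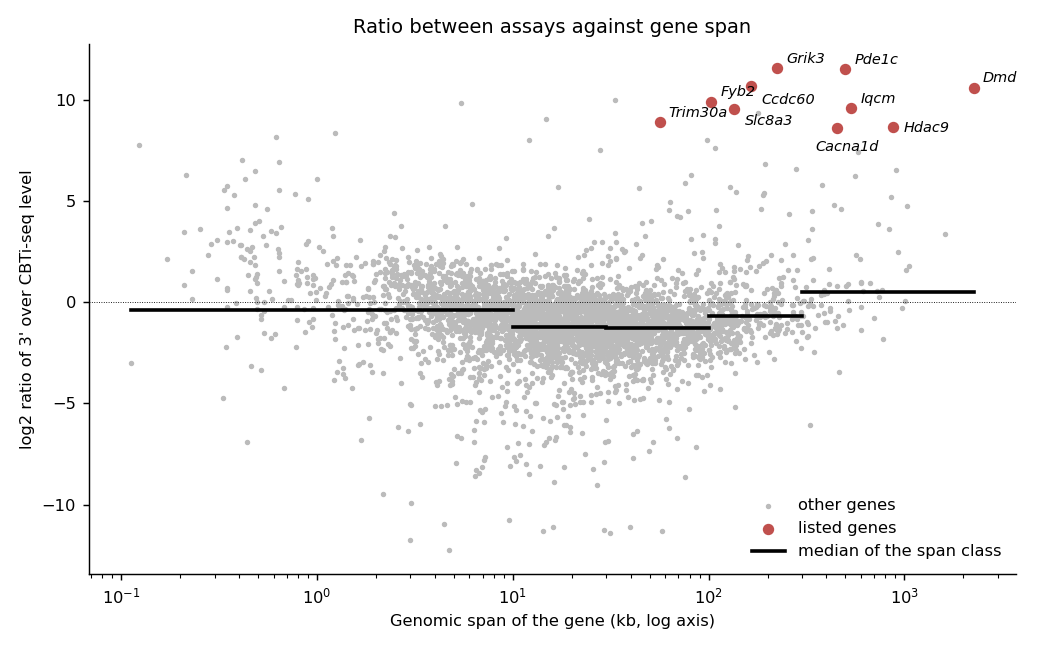
Log2 ratio of 3' over CBTi-seq level against genomic span (kb, log axis) for genes that average 50 CPM or more and have a count in both assays. Red points are the listed genes and grey points all other genes, unnamed gene models included. Black bars are the median of each span class, from -1.25 at 30 to 100 kb to 0.50 from 300 kb. The bars cover all 4100 genes at 50 CPM or more, with genes that have no 3' count, which are not drawn, ranked lowest.

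Genes with no row at all in the CBTi-seq table could not enter the ranking, which took genes present in all 3 tables. The lowest total of a row in the CBTi-seq table was 1 count. Among 2858 genes at 50 CPM or more in the 3' tables, 179 had no such row under their symbol or an older one, and the share grew with span: 2.02% under 10 kb, 3.24% from 10 to 30 kb, 6.1% from 30 to 100 kb, 12.4% from 100 to 300 kb and 36.4% (60 of 165) from 300 kb. The median span of genes without a row was 137 kb, against 17.7 kb with a row. Of the 179 genes, 134 were protein coding, and 130 of these have a name other than that of an unnamed gene model. The highest 3' levels among these 130 were those of Vmn2r40, a vomeronasal receptor gene (1289 CPM), Afm, which encodes the plasma protein afamin (913 CPM), Rasgrf1, a Ras exchange factor gene (754 CPM), Agmo, an ether lipid monooxygenase gene (520 CPM), and Fbxl7, an F-box gene (515 CPM). Nyap2 (497 CPM), Tmem132d (444 CPM), Spock1 (402 CPM), Lhx5 (394 CPM) and Zfp280d (384 CPM) followed.

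A list of very long genes known from textbooks was compared in the same way. Of 23 such genes other than Dmd, 20 were at 20 CPM or more in the 3' tables and 0 were in CBTi-seq, where 14 had no count and Immp2l was highest at 16.6 CPM. All 23, at 14.1 to 254 CPM, were found in each of the 16 columns of the 3' tables. The share of all genes that reach 20 CPM in each assay was not computed. Counts at that level, for these genes and for the families and markers, therefore have no background beside them, and neither has the detection in every column. The highest were Csmd3 (254 CPM), Macrod2 (230 CPM), Ptprd, a receptor tyrosine phosphatase gene (177 CPM), and Lrp1b, a lipoprotein receptor gene (170 CPM), each with 0 counts in CBTi-seq. Wwox, an oxidoreductase gene at a fragile site, stood at 52.9 CPM in the 3' tables and 14.0 CPM in CBTi-seq.

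Families of the listed genes were compared next, to see whether relatives were counted in the same way. Of 15 other ionotropic glutamate receptor genes, 7 reached 20 CPM in the 3' tables and 0 did so in CBTi-seq, and each of the 7 was under 1 CPM there. The AMPA receptor subunit genes Gria4 and Gria3 had 246 and 117 CPM in the 3' tables, and the kainate receptor subunit gene Grik1 had 183 CPM, all with 0 counts in CBTi-seq. Of 16 other voltage-gated calcium channel genes, 4 reached 20 CPM in the 3' tables and 0 in CBTi-seq, led by Cacna1a at 33.6 CPM in the 3' tables and 16.6 CPM in CBTi-seq. Of these 4, Cacna2d3 (31.2 CPM in the 3' tables) had no CBTi-seq count and Cacnb4 (29.8 CPM) had 2 counts. Cacna2d1 had 20.4 CPM in the 3' tables and 18.5 CPM in CBTi-seq.

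**Figure D3:**
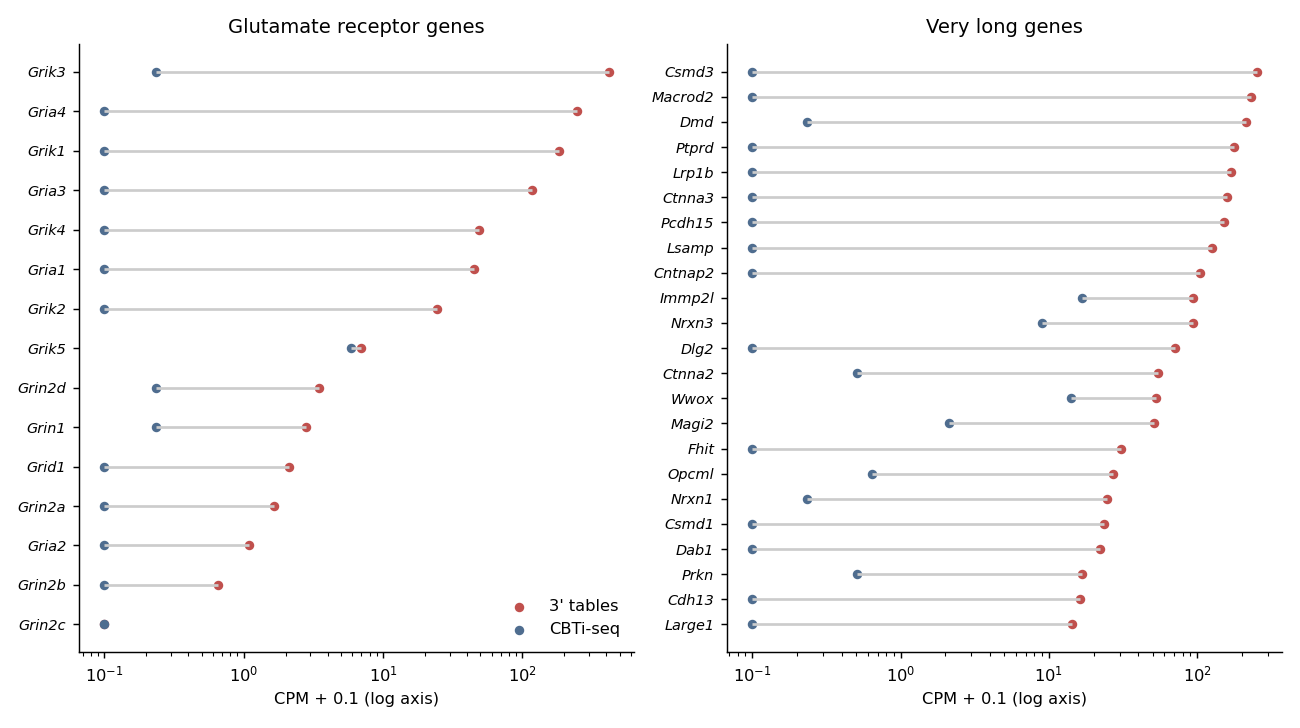
Level in the 3' tables (red) and in CBTi-seq (blue), as CPM plus 0.1 on a log axis, for ionotropic glutamate receptor genes (left) and very long genes (right), listed genes included and 1 gene of both lists not drawn. Each line joins the values of 1 gene; a blue point at 0.1 is a gene with 0 CBTi-seq counts, as for Gria4 at 246 CPM and Csmd3 at 254 CPM in the 3' tables.

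Other families had some members counted by both assays, with 2 other histone deacetylase genes and 2 other phosphodiesterase genes at 20 CPM or more in each. Of 10 other histone deacetylase genes, 2 reached 20 CPM in the 3' tables and 8 did so in CBTi-seq. Hdac2, a class I enzyme gene, had 23.8 CPM in the 3' tables and 138 CPM in CBTi-seq, and Hdac4, the class IIa relative of Hdac9, had 29.6 CPM in the 3' tables and 80.6 CPM in CBTi-seq. Of 18 other phosphodiesterase genes, 3 reached that level in the 3' tables and 5 in CBTi-seq, and 6 had no CBTi-seq count. Pde4a had 389 CPM in the 3' tables and 39.5 CPM in CBTi-seq. Pde4d, which is also long, had 91.6 CPM in the 3' tables and 1 count in CBTi-seq, and Pde12 had 0.123 CPM in the 3' tables and 44.4 CPM in CBTi-seq.

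Some partners of dystrophin were present in both assays. Of 13 other genes of its complex, 8 reached 20 CPM in the 3' tables and 5 in CBTi-seq. Dag1 (dystroglycan) had 84.2 CPM in the 3' tables and 116 CPM in CBTi-seq. Dtnb (beta-dystrobrevin) had 113 CPM in the 3' tables and 129 CPM in CBTi-seq, and the dystrophin relative Utrn (utrophin) had 37.2 CPM in the 3' tables and 81.6 CPM in CBTi-seq. Of 9 other sodium-calcium exchanger and calcium pump genes, 2 reached 20 CPM in the 3' tables and 5 in CBTi-seq. Among them Atp2b1, a plasma membrane calcium pump gene, had 114 CPM in the 3' tables and 257 CPM in CBTi-seq. Atp2a2, a pump gene of the endoplasmic reticulum, had 83.9 CPM in the 3' tables and 281 CPM in CBTi-seq.

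Relatives of Fyb2 and Trim30a were mostly low. Of 7 other genes of the FYB and SKAP adaptor list, 4 reached 20 CPM in the 3' tables and 2 in CBTi-seq, with Skap2 at 99.7 CPM in the 3' tables and 93.0 CPM in CBTi-seq. Fyb, the namesake of Fyb2, had 42.1 CPM in the 3' tables and 18.5 CPM in CBTi-seq. Skap1, which spans 295 kb, had 25.7 CPM in the 3' tables and 2 counts in CBTi-seq. Of 11 other TRIM genes, Trim25, a ubiquitin ligase gene of antiviral signalling, alone reached 20 CPM in either assay, with 26.3 CPM in the 3' tables and 54.0 CPM in CBTi-seq. Trim30a has near copies beside it, and reads shared with them could be split by the counting. In the 3' tables the copies were low, with 0 counts for Trim30d and 0.370 CPM for Trim30c. In CBTi-seq Trim30d had 10 counts and Trim30c 0, beside 18 for Trim30a. Assigned counts do not show whether shared reads were dropped, and this was not tested.

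Markers of other cell types were looked at because several listed genes are known from nerve, muscle or immune cells. Of 10 neuron markers, 2 reached 20 CPM in the 3' tables, Syn1 (44.7 CPM) and Syt1 (33.0 CPM), and 0 in CBTi-seq. Their sum was 78.3 CPM in the library labelled knock and 103 CPM in the library labelled control, and 4 of the 10 (Snap25, Tubb3, Gad1 and Slc17a7) had 0 counts in the 3' tables. The other 4 were at 5.98 CPM or lower, with 97 counts for Elavl4, 72 for Rbfox3, 11 for Stmn2 and 1 for Map2. Of 12 muscle markers, 2 reached 20 CPM in each assay, with a sum of 133 CPM in the 3' library labelled knock and 58.2 CPM in that labelled control. Of 10 leukocyte markers, Cd74 (203 CPM) and Cd68 (119 CPM) reached 20 CPM in the 3' tables, and Ptprc had 0 counts. Cd74 and Cd68 also reached 20 CPM in CBTi-seq, at 96.2 and 32.3 CPM. The leukocyte markers summed to 303 CPM in the 3' library labelled knock and 366 CPM in that labelled control. Of the epithelial markers, Cdh1 alone reached 20 CPM in the 3' tables, at 144 CPM, with 0 counts in CBTi-seq. None of the markers of ciliated cells or testis reached 20 CPM in either assay. The part of these genes in the result was not tested.

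Genes that lie within or across the listed genes were counted separately. The annotation has 27 of them, and 8 had a count in either assay. Processed pseudogenes inside listed genes had 0 counts in the 3' tables and counts in CBTi-seq: Ftl2-ps inside Grik3 had 31, Gm14769 inside Dmd 4, Gm7901 on the opposite strand inside Iqcm 519 and Gm18025 inside Hdac9 164. C330018A13Rik, an antisense gene across the 3' end of Ccdc60, had 7 counts in the 3' library labelled knock, 0 in that labelled control and 56 in CBTi-seq. Gm25405, a small nuclear RNA gene inside Trim30a, had 0 counts in the 3' tables and 3 in CBTi-seq. Dcp1a, a decapping factor gene whose span meets that of Cacna1d, had 95 counts in the 3' library labelled knock, 23 in that labelled control and 129 in CBTi-seq. Chdh, which meets the other end of Cacna1d, had 0 counts in the 3' library labelled knock, 35 in that labelled control and 0 in CBTi-seq. No source used here says whether counting used strand, so reads of overlapping genes may not be separated.

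The nearest protein-coding genes beyond the listed genes were mostly low in the 3' tables. Of 20 such neighbours, 6 had 0 counts there, the median was 1.29 CPM, and 1 passed 50 CPM. It was Hspb8, a small heat shock protein gene 120 kb from Ccdc60, at 170 CPM in the 3' tables and 314 CPM in CBTi-seq. Tkt beside Cacna1d and Lsm5 beside Pde1c also passed 50 CPM in CBTi-seq, at 264 and 95.3 CPM. The share of all protein-coding genes at these levels is not given here, so these counts have no background beside them.

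Runs of A in the annotated transcripts were searched, 12 or more A on the sense strand (AAAAAAAAAAAA). They occurred in 2 of the 10 listed genes, against 18.4% of the 4090 others, so the listed genes were near that share. The 2 sites are shown because they are the longest such runs on the list, with the run in capitals. The first is the annotated end of Ccdc60-201, transcript bases 3502 to 3522, a run of 21 A (chr5:116124641-116124670, minus strand, GRCm38). The other lies within Trim30a-201, bases 1983 to 1996, a run of 14 A (chr7:104410792-104410821, minus strand).
Ccdc60-201: tccaggctcAAAAAAAAAAAAAAAAAAAAA
Trim30a-201: ccatattcAAAAAAAAAAAAAAtagttgtt
Introns were not searched, since no genome sequence was used here.

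Between the 3' libraries, 9 of the 10 listed genes had a lower level under the label knock, as did 42.3% of the 2825 genes that average 50 CPM or more in the 3' libraries. Their median log2 ratio of knock over control was -0.56, against 0.14 over all these genes. None was 2-fold apart by size, while 13.3% of all genes were at least 2-fold higher and 4.53% at least 2-fold lower in the library labelled knock. Slc8a3 had the largest ratio in size below 0, with a log2 ratio of -0.76 (95% counting interval -0.86 to -0.66). Trim30a was at -0.67, Cacna1d at -0.63, Hdac9 at -0.62, Dmd at -0.59 and Iqcm at -0.54. Fyb2 at -0.40, Ccdc60 at -0.39 and Pde1c at -0.33 were closer to 0. Grik3 was the exception, at 0.81 (0.74 to 0.89), with 515 CPM in the library labelled knock and 293 CPM in that labelled control. Columns did not overlap for Slc8a3 alone, all knock columns being below all control columns, as held for 11.7% of all genes, while all knock columns were above all control columns for 24.6%.

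One deep column weighs on these sums. Control column 2 held 35.3% of the counts of its library, and without it the median log2 ratio of the listed genes was -0.42, against 0.14 over all genes. Hdac9 then stood at -0.03 and Pde1c at -0.11, Dmd at -0.40 and Grik3 at 0.61, while Slc8a3 stood at -0.83. Summed over the 10 genes, the level per column was 3338 to 5069 CPM, median 3726 CPM, in the library labelled knock, and 4333 to 5836 CPM, median 4608 CPM, in the library labelled control. The ranges overlapped through knock column 2, the shallowest of its library and the highest for Grik3. The libraries also differed in the share of ribosomal protein genes, 15.7% to 16.4% of counts per knock column and 23.6% to 24.7% per control column. Mitochondrially encoded genes took 1.67% to 1.74% per knock column and 0.946% to 0.994% per control column. The summed fibroblast markers moved the other way from the listed genes, at 3211 CPM in the library labelled knock and 1863 CPM in that labelled control. The part of these differences in the ratios was not tested; without both groups of genes in the totals, the median of the listed genes was -0.70 and that of all genes 0.01.

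**Figure D4:**
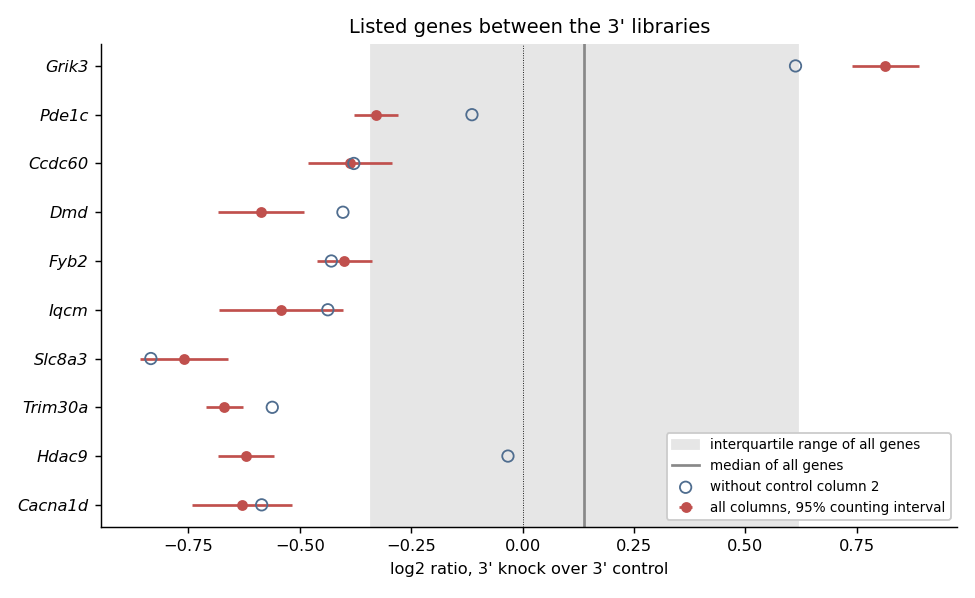
Log2 ratio of the level in the 3' library labelled knock over that in the 3' library labelled control for each listed gene. Red points use all columns, with 95% intervals for counting error only, and open circles leave out control column 2; the grey band holds the interquartile range of all genes around their median of 0.14, and 9 of 10 red points lie below it or at its lower edge, with Grik3 above at 0.81.

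The same ratio was set against span in the other genes, where it was below 0 at the median from 300 kb only. With the listed genes left out, the median log2 ratio of knock over control was 0.19 under 10 kb, 0.19 from 10 to 30 kb, 0.13 from 30 to 100 kb, 0.02 from 100 to 300 kb and -0.29 from 300 kb, where 64.2% of 162 genes were below 0. Of the 86 named protein-coding genes of 100 kb or more without a CBTi-seq row, 69 were below 0, with a median of -0.45. Their summed level was 11086 CPM in the library labelled knock and 15881 CPM in the library labelled control. Of the 23 other very long textbook genes, 17 were below 0, with a median of -0.31. Glutamate receptor genes at 20 CPM or more were below 0 too, apart from Grik3: Gria4 stood at -0.79, Grik1 at -1.13 and Grik4 at -2.67. Another scaling moves all these ratios together, by -0.15 with TMM factors, which puts the medians of the classes from 30 to 300 kb below 0 as well. The 3' libraries are the same in all these counts, and no gene is a replicate of another.

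**Figure D5:**
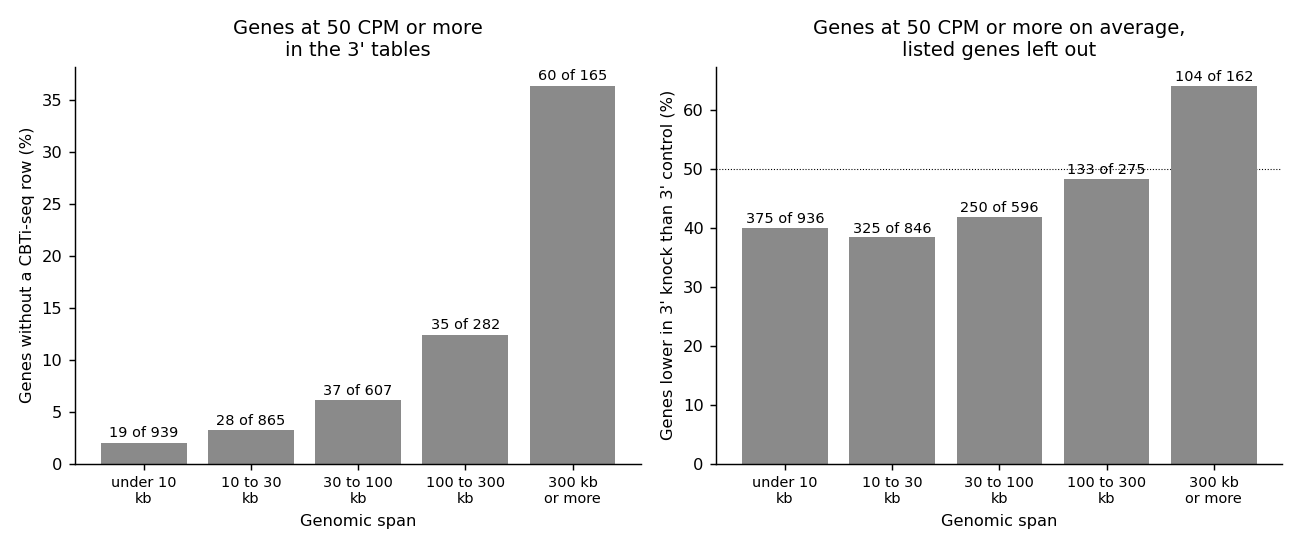
Left: share (%) of genes at 50 CPM or more in the 3' tables that have no row in the CBTi-seq table, by class of genomic span, from 2.02% under 10 kb to 36.4% from 300 kb. Right: share (%) of genes lower in the 3' library labelled knock than in that labelled control by the same classes, with the listed genes left out, reaching 64.2% from 300 kb; the dotted line marks 50%, and the numbers above the bars are genes.

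Within a library the listed genes were less even over columns than most genes of their level. The coefficient of variation over columns had a median of 18.2% in the library labelled knock (8.10% to 54.0%), where it was 11.1% over 1367 genes at 100 to 1200 CPM. In the library labelled control it had a median of 19.3% (up to 43.5%), where it was 14.4% over those genes. Of the 10 listed genes, 9 were above that median in the library labelled knock, and 10 were in the library labelled control. Grik3 (54.0%) and Pde1c (32.7%) were the least even in the library labelled knock, and Hdac9 (43.5%) and Grik3 (38.9%) in the library labelled control. Trim30a had the lowest coefficient, 8.10% in the library labelled knock, but this measure falls as counts rise and Trim30a had the most counts. By chi-square over degrees of freedom, which allows for counting error, Trim30a stood at 7.64 there. The median of the listed genes by that measure was 7.56, against 2.78 over the 1367 genes. Where columns differ by more than counting error, this measure rises with counts. The 1367 genes were not matched to the listed genes by counts, and the part of counts in this difference was not tested.

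Among genes not on the list, the profile of log2(CPM + 1) over all 36 columns nearest to the mean of the listed genes belonged to 4930511M06Rik, an unnamed gene model, at a Euclidean distance of 3.06. C330002G04Rik (4.48), Ank2 (4.63), Gm3604 (4.98) and AC154200.1 (5.44) followed, and the listed genes themselves lay between 2.86 (Ccdc60) and 9.66 (Trim30a) from it. Ank2, which spans 578 kb, had 210 CPM in the 3' tables and 9 counts in CBTi-seq, with a log2 ratio of knock over control of -0.60.

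Promoters were read from RefSeq (GRCm38.p6) as 250 bases before to 50 bases after each annotated start, and all 10 genes matched, with 16 promoters in all. They held 0 to 63 CG pairs with a median of 5.5, where the median over 32851 promoters was 7. A count of 20 CG or more was found in 12.5% of the listed promoters and 26.5% of all. TATAAA on either strand was in 3 of 16 listed promoters (13.6% of all), GGGCGG, the GC box, in 4 (35.7% of all) and the core of the interferon-stimulated response element (GAAA, any 2 bases and GAAA) in 2 (3.44% of all), both of Trim30a. The highest count, 63, was in a promoter of Cacna1d. The sequences of 2 promoters are shown. That of Grik3, the gene higher in the library labelled knock, holds 50 CG pairs, given in capitals (chr4:125490446-125490745, plus strand). That of Trim30a, the gene with the highest 3' level on the list, holds 0, and capitals mark the match to that element on the opposite strand (chr7:104465144-104465443, minus strand).
Grik3: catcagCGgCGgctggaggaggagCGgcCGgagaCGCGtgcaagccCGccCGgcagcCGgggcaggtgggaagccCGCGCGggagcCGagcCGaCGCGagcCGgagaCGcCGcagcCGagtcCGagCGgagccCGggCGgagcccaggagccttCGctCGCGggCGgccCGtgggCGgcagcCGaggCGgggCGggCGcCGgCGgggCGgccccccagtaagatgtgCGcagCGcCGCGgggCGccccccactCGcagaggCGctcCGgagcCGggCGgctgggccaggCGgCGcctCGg
Trim30a: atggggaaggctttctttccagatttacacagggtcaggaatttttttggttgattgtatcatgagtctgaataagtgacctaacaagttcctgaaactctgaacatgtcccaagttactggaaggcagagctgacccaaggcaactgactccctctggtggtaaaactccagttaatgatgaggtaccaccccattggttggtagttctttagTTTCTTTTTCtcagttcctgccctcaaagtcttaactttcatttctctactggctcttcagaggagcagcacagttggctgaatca
A match to these letters is a description of the sequence and not a site shown to be bound.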

How the data were processed

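Whole-number counts per gene and column were deposited by the authors for 3 samples, with no normalization by them. The submitters' processing notes name STAR 2.7.11b, Picard and FastQC, and the builds GRCm38 and GRCh38 with no role for either. No source used here gives the counting tool, its use of strand, or whether the 3' counts are reads or molecules. The 3' gene IDs were matched to symbols, types, spans and transcripts of the GENCODE annotation of GRCm38 (release M21), with coordinates 1-based. A CBTi-seq row was taken as a gene's older symbol only where it is no other 3' gene's symbol. Unmatched rows took 0.0329% of counts in the 3' library labelled knock and 0.0194% in that labelled control.

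For each group the columns were added up and divided by the group's total (CPM). Ratios have exact conditional (Clopper-Pearson) 95% intervals, which hold counting error and nothing of the variation from column to column. With 1 sample per group there was no test and no p-value. Calls of 2-fold are by size alone and need an average of 50 CPM. The members, the gene lists and marker lists and the rule for named genes were chosen with earlier results of these data known. The rule named the listed genes, the next 5 in the ranking, the 5 nearest profiles, up to 10 genes with no CBTi-seq row, up to 4 members per list at 20 CPM or more in either assay, and overlapping genes with a count. In the lists, 1 gene is included in the list counts and is not reported here by itself. Long genes low in the 3' tables, neighbours, other listed family members and markers were named after their values were seen.

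Alternatives were median-of-ratios factors (DESeq2 1.42.0), TMM factors (edgeR 4.0.16), the mean of CPM over columns, totals without mitochondrially encoded and ribosomal protein genes, thinning of columns to 50000 counts, other level limits, transcript in place of span, and left-out columns. Leaving out the deepest 3' column, counting genes below 0 or below the median, leaving the listed genes out of the span classes, and searching annotated transcripts for runs of A were added after seeing the data. The steps used Python 3.11.15 with scipy 1.17.1, pandas 2.3.3, numpy 2.4.6 and matplotlib 3.10.9, and R 4.3.3, and were tested on simulated data.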

Additional observations from a re-analysis of the deposited data

Results flagged for a closer look

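Of 20 pairs of a listed gene and a 3' library, 5 had 1 column whose gap to the next, as a share of the whole range of 8 columns, was above Dixon's 95% limit. Chance flags about 1 in 20 groups, and over 1367 genes at 100 to 1200 CPM 6.80% had such a column in the library labelled knock and 7.83% in that labelled control. Grik3 stood at 1261 CPM in knock column 2, where the other knock columns held 376 to 548 CPM. Grik3 also stood at 576.9 CPM in control column 5, where the others held 195 to 352 CPM. Hdac9 stood at 1009 CPM in control column 2, the deepest column, where the others held 357 to 493 CPM. Ccdc60 stood at 370.7 CPM in control column 8, where the others held 216 to 282 CPM. Cacna1d stood at 263.1 CPM in that same column, where the others held 170 to 213 CPM.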

How the results depend on the processing

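All 10 listed genes were higher in the 3' tables under each alternative that was run. They were chosen by this ratio, so that direction was fixed in advance and is no support for it. With columns thinned to 50000 counts, 5 listed genes had no CBTi-seq count left, as did 5 with knock columns only and 2 with control columns only, so thinning and knock columns gave no median ratio. Of 38 ratios of 3' over CBTi-seq level for single genes, 2 moved beyond the counting interval, both under thinning (Grik3 at 8.68 and Pde1c at 9.51). Of 60 ratios of knock over control, 42 moved beyond the counting interval and none changed sign. Listed genes at least 2-fold lower in the library labelled knock numbered 0, and 1 with thinned columns (Iqcm, at -1.06). Thinning also brought the median of the listed genes to -0.36. The mean of CPM over columns brought Hdac9 to -0.25. TMM factors shifted the median of all genes by -0.15 and median-of-ratios factors by -0.16, and 9 of 10 listed genes were below that median under each of the alternatives. Under TMM factors 50.8% of all genes were below 0, and under median-of-ratios factors 51.0%. The 17.7-fold difference in span became 2.23-fold with the longest transcript in its place. With genes at 20 CPM or more, the median ratio of 3' over CBTi-seq level was 0.83 from 300 kb and -0.86 under 10 kb; the cause was not tested. No paired analysis was possible because each group is 1 sample and the column numbers pair nothing. The planned search for runs of A over gene spans was not run, as no genome sequence was used here. Depth limits the CBTi-seq side, where 1 to 18 counts stand behind each ratio.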
